A study of Mus musculus with 10 samples.

Results

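The 37 genes described here carry cholesterol synthesis, its control by sterol sensing, fatty acid synthesis and remodelling, and 3 responses to the sterol-activated receptor LXR. They form a list of named genes, chosen with no threshold on their values but with earlier results of these data known. The study counted 55359 gene identifiers, and all 37 were among the 15777 genes abundant enough to be tested. By role they are 7 genes of the mevalonate arm, 11 of the squalene and sterol arm, 5 of the SREBP system with a sterol carrier, 4 of fatty acid synthesis, 7 desaturases, elongases and an acyl-CoA synthetase, and 3 LXR target genes.

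The cells were pmel-1 lymphocytes, which carry a transgenic T cell receptor against the melanocyte antigen gp100. Spleen cultures saw hgp100 for 48 h, then hIL-2 for 48 h, and RNA was taken 24 h after the electroporation step. All 5 groups shared this activation and culture. NoEp cells were labelled WT and were not electroporated. Mock cells were electroporated, and the labels do not name what they received. DRIL18 cells received mRNA for a decoy-resistant variant of the cytokine IL-18, IL12 cells received mRNA for the cytokine IL-12, and mixture cells received both. Each group had 2 libraries. The labels call them biological replicates without saying whether they came from separate mice, so p-values reflect the spread among these libraries, which may be technical.

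Cells make cholesterol from acetyl-CoA through mevalonate and squalene, and they make fatty acids from the same acetyl-CoA. The transcription factors SREBP-1 and SREBP-2 drive both sets of enzymes. They are held in the endoplasmic reticulum by SCAP and INSIG proteins while sterol is plentiful, and are cut free in the Golgi when it is scarce. LXR answers to oxysterols and promotes export of cholesterol, and T cells raise the synthesis genes when they are activated to divide.

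The libraries held 31281944 to 35062545 counted reads each, and the spread between replicates was small, with a common coefficient of variation of 3.39%. Il18 read 412 and 401 counts per 1000000 reads (CPM) in DRIL18 and 403 and 361 in mixture, against 1.73 to 2.32 in the other libraries, and Il12a and Il12b were not among the tested genes. Summed CPM of 7 CD8 T cell markers was 3731 to 3996 in NoEp and Mock, 3549 and 3568 in DRIL18, 3323 and 3236 in IL12, and 2692 and 2659 in mixture. The 7 were uneven, with log2 fold changes between mixture and Mock from -0.21 for Cd8a to -1.06 for Cd3g. Mean Cd8a was 911 CPM in Mock, 751 in IL12 and 787 in mixture. Macrophage and monocyte markers, 10 genes in all, summed to at most 1.78 CPM in any library, with Mertk and C1qa at 0 throughout. The sum over 7 B cell markers was 30.9 and 30.7 CPM in Mock, 27.6 and 25.3 in IL12, and 46.7 and 50.2 in mixture. By the test described below, 5 of these 7 were higher in mixture than in Mock, Cd79b was lower and Cd79a did not pass. Igkc had the highest mixture level of the 7, with means of 7.60 CPM in Mock and 16.8 in mixture. For 6 dendritic cell markers the sum was 4.95 and 4.76 CPM in Mock, 21.0 and 21.7 in IL12, and 10.4 and 9.90 in mixture, with Clec9a and Siglech at 0 in all of these. Xcr1 alone read 20.6 in both IL12 libraries, nearly all of that sum. For 3 gamma-delta T cell markers it was 85.8 and 87.0 CPM in Mock, 61.6 and 65.9 in DRIL18, 44.99 and 39.8 in IL12, and 23.1 and 23.3 in mixture. Trdc made up most of this sum, at 70.2 and 72.6 CPM in Mock and 19.9 and 21.0 in mixture. Trdv4 was at most 0.594 CPM in any library. Apart from the macrophage list, near 0 in every library, these lists moved with the groups compared below, and their part in the results was not tested.

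Promoter sequence is shown first, and whether its motifs bear on the changes that follow was not tested. RefSeq windows on GRCm38.p6, from 250 bases before to 50 bases after a gene's start, were found for 29 of the 37 genes, as 36 windows. In 32 of the 36, bases after the start matched a transcript of the gene. Read on both strands, the letters CCAAT, the motif of NF-Y, stood in 24 of these 36 windows (66.7%) and in 37.4% of all 32851 windows of that length. GGGCGG, the GC box of Sp factors, stood in 75% of the 36 and 35.7% of all. CACGTG, an E-box, stood in 22.2% and 7.15%. A core of the sterol response element, TCACNCCAC, stood in 1 of the 36, that of Hmgcs1, and in 1.24% of all. The 32851 windows were not limited to genes tested here. Each motif was counted on its own, so matches of different motifs may overlap, and a match describes letters only.

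The 150 bases before the start are printed for 5 genes of the sterol pathway and its control that rose with IL12 and with the mixture, and for Elovl6, Elovl5 and Mylip, which rose with IL12 and fell with the mixture. Capitals mark CCAAT, written as ATTGG where it lies on the other strand, and the sterol response core. The stretches are chr13:119690201-119690350 (+) for Hmgcs1, chr13:8885456-8885605 (+) for Idi1, chr8:64733579-64733728 (-) for Msmo1, chr1:169969206-169969355 (-) for Hsd17b7, chr5:28071262-28071411 (+) for Insig1, chr3:129532236-129532385 (+) for Elovl6, chr9:77917215-77917364 (+) for Elovl5 and chr13:45389592-45389741 (+) for Mylip.
Hmgcs1: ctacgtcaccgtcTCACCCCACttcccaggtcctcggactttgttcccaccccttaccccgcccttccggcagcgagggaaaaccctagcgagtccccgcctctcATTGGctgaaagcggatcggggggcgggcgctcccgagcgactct
Idi1: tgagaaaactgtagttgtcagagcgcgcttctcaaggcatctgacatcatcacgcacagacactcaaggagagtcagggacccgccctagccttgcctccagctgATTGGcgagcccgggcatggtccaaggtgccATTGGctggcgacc
Msmo1: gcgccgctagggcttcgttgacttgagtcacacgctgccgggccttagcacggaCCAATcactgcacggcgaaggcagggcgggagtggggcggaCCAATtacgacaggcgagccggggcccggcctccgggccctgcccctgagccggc
Hsd17b7: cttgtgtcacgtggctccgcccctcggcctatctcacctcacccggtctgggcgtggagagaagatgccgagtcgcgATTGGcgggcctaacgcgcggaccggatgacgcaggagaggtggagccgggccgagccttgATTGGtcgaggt
Insig1: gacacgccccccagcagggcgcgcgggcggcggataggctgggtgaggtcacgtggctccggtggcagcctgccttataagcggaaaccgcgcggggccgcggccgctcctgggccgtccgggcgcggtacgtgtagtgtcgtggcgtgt
Elovl6: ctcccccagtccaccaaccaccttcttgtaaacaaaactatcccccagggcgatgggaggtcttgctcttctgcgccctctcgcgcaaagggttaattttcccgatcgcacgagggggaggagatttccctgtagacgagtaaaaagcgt
Elovl5: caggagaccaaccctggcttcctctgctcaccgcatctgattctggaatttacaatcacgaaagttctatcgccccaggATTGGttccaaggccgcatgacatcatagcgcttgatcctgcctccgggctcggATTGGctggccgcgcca
Mylip: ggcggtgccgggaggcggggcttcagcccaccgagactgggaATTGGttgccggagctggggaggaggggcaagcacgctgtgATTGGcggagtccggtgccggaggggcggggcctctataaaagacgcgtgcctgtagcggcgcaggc
Of these 8 stretches, those of Insig1 and Elovl6 hold neither motif, and those of Idi1, Msmo1, Hsd17b7, Elovl5 and Mylip each hold CCAAT in either direction 2 times.

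Nearly the whole set was higher with IL-12 mRNA. Against Mock, 33 of the 37 genes were higher in IL12, 1 was lower, and 3 did not pass the test, with a median log2 fold change of 0.74. Over all tested genes, 23.0% were called higher and 23.6% lower in this comparison, and the median was -0.0065. In DRIL18, 7 genes were higher than in Mock, 7 were lower and 23 did not pass, where 12.2% of all genes were called higher and 12.1% lower. The median was 0.0035 against 0.0043 over all genes. The 7 higher were Pmvk, Idi1, Cyp51, Msmo1, Me1, Scd1 and Scd2, and the 7 lower were Lss, Srebf2, Fasn, Fads1, Elovl5, Elovl6 and Mylip. Of these 14 calls, 7 held in every alternative setting run, and 4 genes were lower without Mock replicate 2. In the mixture, 29 were higher than in Mock, 6 were lower and 2 did not pass, where 32.0% of all genes were called higher and 31.9% lower, with a median of 0.74 against -0.0021 over all genes. A gene was called at an adjusted p under 0.05 in edgeR's quasi-likelihood test, fitted on all 10 libraries and adjusted by Benjamini-Hochberg over 15777 genes. The comparisons with Mock share the same 2 Mock libraries. The word bis, whose meaning is not given, stands in the names of both mixture libraries and of neither Mock library. Within that comparison, what the word marks cannot be told apart from the mixture. In such bulk RNA, fewer cells of a type and less RNA per cell cannot be told apart.

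**Figure D1:**
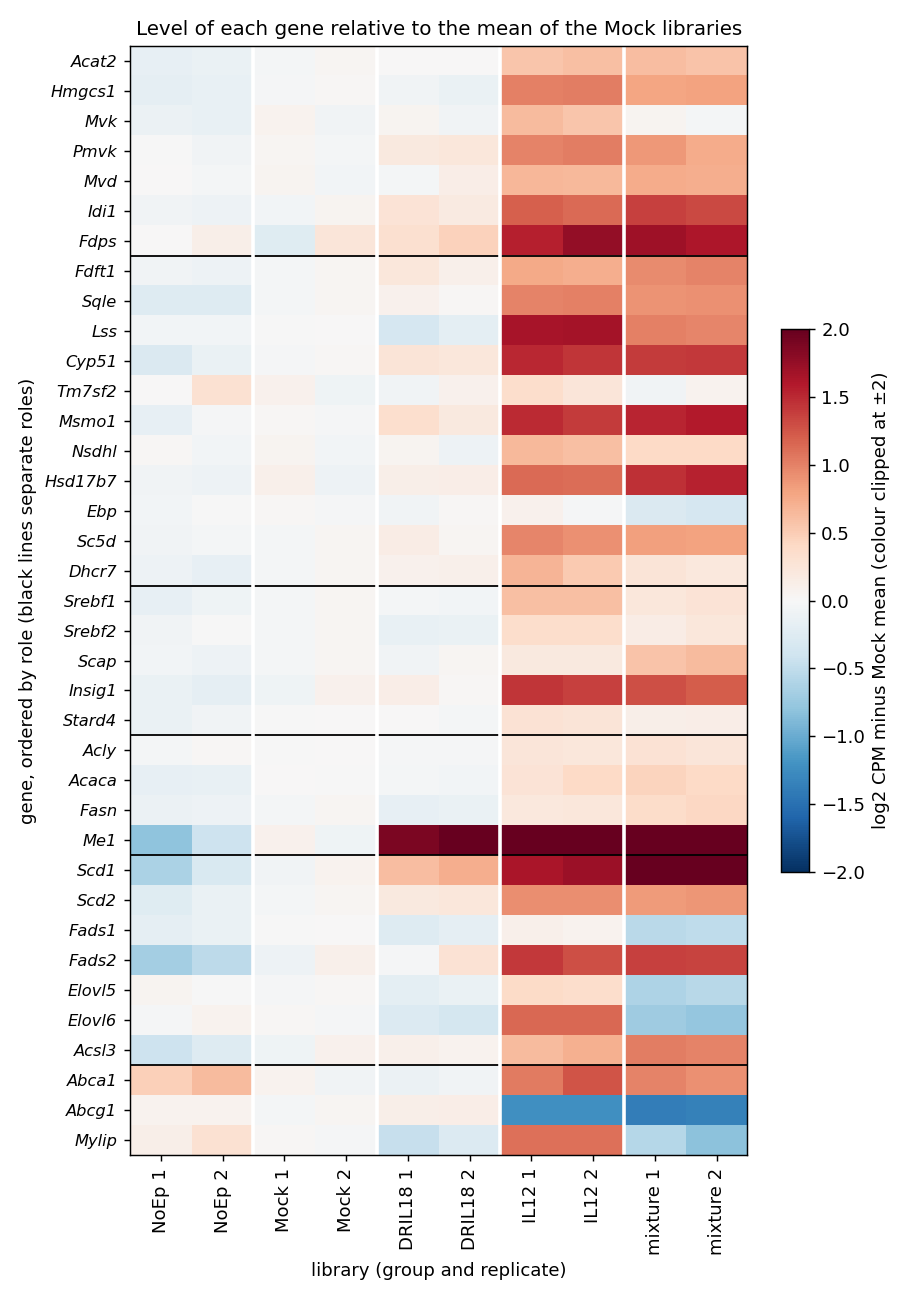
Each row is a gene and each column a library. Colour gives log2 CPM minus the mean of the Mock libraries, clipped at 2 in either direction, and black lines separate the roles. Most rows are red in the IL12 and mixture columns, while Fads1, Elovl5, Elovl6 and Mylip are blue in the mixture columns and Abcg1 is blue in both groups.

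In the mevalonate arm, 7 of 7 genes rose with IL12 and 6 of 7 with the mixture, with median log2 fold changes of 1.01 and 0.80. Hmgcs1, which makes HMG-CoA, read 97.7 and 100.5 CPM in Mock, 94.8 and 90.8 in DRIL18, 199 and 201 in IL12, 172 and 173 in mixture, and 87.7 and 89.1 in NoEp. Its IL12 and mixture libraries lay above all others and did not overlap each other. The log2 fold change from Mock was 1.01 ± 0.040 (SE) in IL12 (adjusted p = 1.53e-19) and 0.80 ± 0.040 in the mixture (adjusted p = 2.00e-17). Idi1, which interconverts the isoprene building blocks, read 30.7 and 32.9 CPM in Mock, 38.6 and 35.9 in DRIL18, 72.9 and 69.6 in IL12, 82.2 and 79.6 in mixture, and 30.4 and 29.7 in NoEp. It was highest in the mixture, with a log2 fold change from Mock of 1.35 ± 0.056, against 1.16 ± 0.057 in IL12 and 0.23 ± 0.060 in DRIL18. The last of these calls was lost without DRIL18 replicate 1 (adjusted p = 0.111) or Mock replicate 1 (adjusted p = 0.112).

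Pmvk, the second kinase of the arm, read 20.5 and 19.4 CPM in Mock, 22.9 and 23.5 in DRIL18, 39.5 and 40.8 in IL12, 36.3 and 33.2 in mixture, and 19.7 and 18.9 in NoEp. It rose by 1.01 in IL12 and 0.80 in the mixture on the log2 scale. Its rise of 0.22 in DRIL18 was lost under 6 of 18 alternative settings, with adjusted p from 0.0525 to 0.202. Mvk, the first kinase, read 19.7 and 17.7 CPM in Mock, 19.5 and 17.7 in DRIL18, 29.0 and 27.4 in IL12, 19.4 and 18.2 in mixture, and 17.2 and 16.8 in NoEp. Its IL12 libraries lay above all others, and those of Mock, DRIL18 and mixture overlapped. It rose by 0.59 ± 0.079 in IL12 (adjusted p = 2.07e-07), and the mixture differed from Mock by 0.010 ± 0.081 (adjusted p = 0.923). Against IL12, the mixture was at -0.58 ± 0.079 (adjusted p = 1.94e-07). Acat2, the thiolase of the first step, rose by 0.58 and 0.60 in the 2 groups, and Mvd, the decarboxylase, by 0.66 and 0.74.

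Fdps, which joins isoprene units into farnesyl diphosphate, read 1.70 and 2.41 CPM in Mock, 2.54 and 2.80 in DRIL18, 6.08 and 7.02 in IL12, 6.66 and 6.32 in mixture, and 2.04 and 2.20 in NoEp. Its log2 fold changes from Mock were 1.68 ± 0.18 in IL12 and 1.66 ± 0.18 in the mixture. This count is uncertain, since 26.7% of its exon bases in GENCODE M21 are also annotated to Gm43738 on the same strand, and Gm43738 was at 0 in every library. Near-identical sequence also makes the counts of other members uncertain. Of each gene's 50-base words, 39.1% of those of Acat2 occur in another gene (Acat3), 30.4% of Acaca, 22.9% of Me1 and 17.7% of Idi1. Those partners were low. Mean Acat3 was 0.38 CPM in Mock and 0.66 in the mixture, Gm5182, which shares with Acaca, was 0.64 and 0.85, Gm13502, which shares with Idi1, was 0.10 and 0.43, and Gm7049, which shares with Me1, was 0 and 0.029.

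In the squalene and sterol arm, 9 of 11 genes rose with IL12 and 2 did not pass, and 9 rose, 1 fell and 1 did not pass with the mixture. Median log2 fold changes were 0.95 and 0.91. Lss, which closes the sterol rings, read 55.7 and 56.8 CPM in Mock, 44.6 and 49.1 in DRIL18, 176 and 179 in IL12, 113 and 111 in mixture, and 54.0 and 54.1 in NoEp. The IL12 libraries were highest, the mixture libraries came next, and the DRIL18 libraries lay below all others. Its log2 fold change from Mock was 1.66 ± 0.046 in IL12 (adjusted p = 1.95e-23), 0.99 ± 0.047 in the mixture and -0.27 ± 0.050 in DRIL18 (adjusted p = 0.00016). Against IL12, the mixture was at -0.67 ± 0.044 (adjusted p = 3.66e-14).

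Cyp51, the lanosterol demethylase, read 74.3 and 76.4 CPM in Mock, 89.8 and 88.2 in DRIL18, 215 and 202 in IL12, 198 and 202 in mixture, and 61.7 and 68.4 in NoEp. It rose in IL12 by 1.47 ± 0.046, in the mixture by 1.41 ± 0.046 and in DRIL18 by 0.24 ± 0.047 on the log2 scale, and mixture against IL12 did not pass, at -0.061 ± 0.043 (adjusted p = 0.246). Msmo1, the methylsterol oxygenase of the next steps, read 28.3 and 27.5 CPM in Mock, 35.3 and 31.9 in DRIL18, 78.4 and 73.8 in IL12, 80.0 and 84.0 in mixture, and 24.9 and 27.4 in NoEp. Its log2 fold changes from Mock were 1.45 ± 0.061 in IL12, 1.55 ± 0.060 in the mixture and 0.27 ± 0.065 in DRIL18, the last lost without DRIL18 replicate 1 (adjusted p = 0.099). Hsd17b7, a keto reductase of the same steps, read 16.1 and 14.1 CPM in Mock, 16.4 and 16.5 in DRIL18, 33.2 and 32.6 in IL12, 41.8 and 43.8 in mixture, and 14.4 and 14.1 in NoEp. Its level was 2.18 times that of Mock in IL12 and 2.83 times in the mixture, whose libraries were highest, above IL12 on the log2 scale by 0.38 ± 0.068 (adjusted p = 1.80e-05).

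Sqle, the squalene epoxidase, read 75.1 and 80.0 CPM in Mock, 82.2 and 78.3 in DRIL18, 155 and 156 in IL12, 145 and 146 in mixture, and 64.6 and 65.1 in NoEp. It rose by 1.00 ± 0.044 in IL12 and 0.91 ± 0.043 in the mixture. Fdft1, the squalene synthase, rose by 0.74 and 0.97, Sc5d, a sterol desaturase, by 0.95 and 0.81, and Nsdhl, a sterol dehydrogenase, by 0.62 and 0.39. For Fdft1, 18.3% of exon bases lie opposite exons of Ctsb, whose mean was 163 CPM in Mock, 208 in IL12 and 137 in the mixture, and no source used here states the strand setting of the counting. Dhcr7, the last reductase, rose by 0.60 and 0.23. Ebp, the sterol isomerase, differed by 0.031 ± 0.052 in IL12 (adjusted p = 0.664) and fell in the mixture, with a log2 fold change of -0.31 ± 0.053 (adjusted p = 5.40e-06). Tm7sf2, a sterol reductase, passed in neither comparison, at 0.29 ± 0.12 and -0.0060 ± 0.13. Its count is uncertain too, since 12.1% of its exon bases are shared on the same strand with Vps51, which averaged 41.3 CPM in Mock, 35.2 in IL12 and 32.3 in the mixture.

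**Figure D2:**
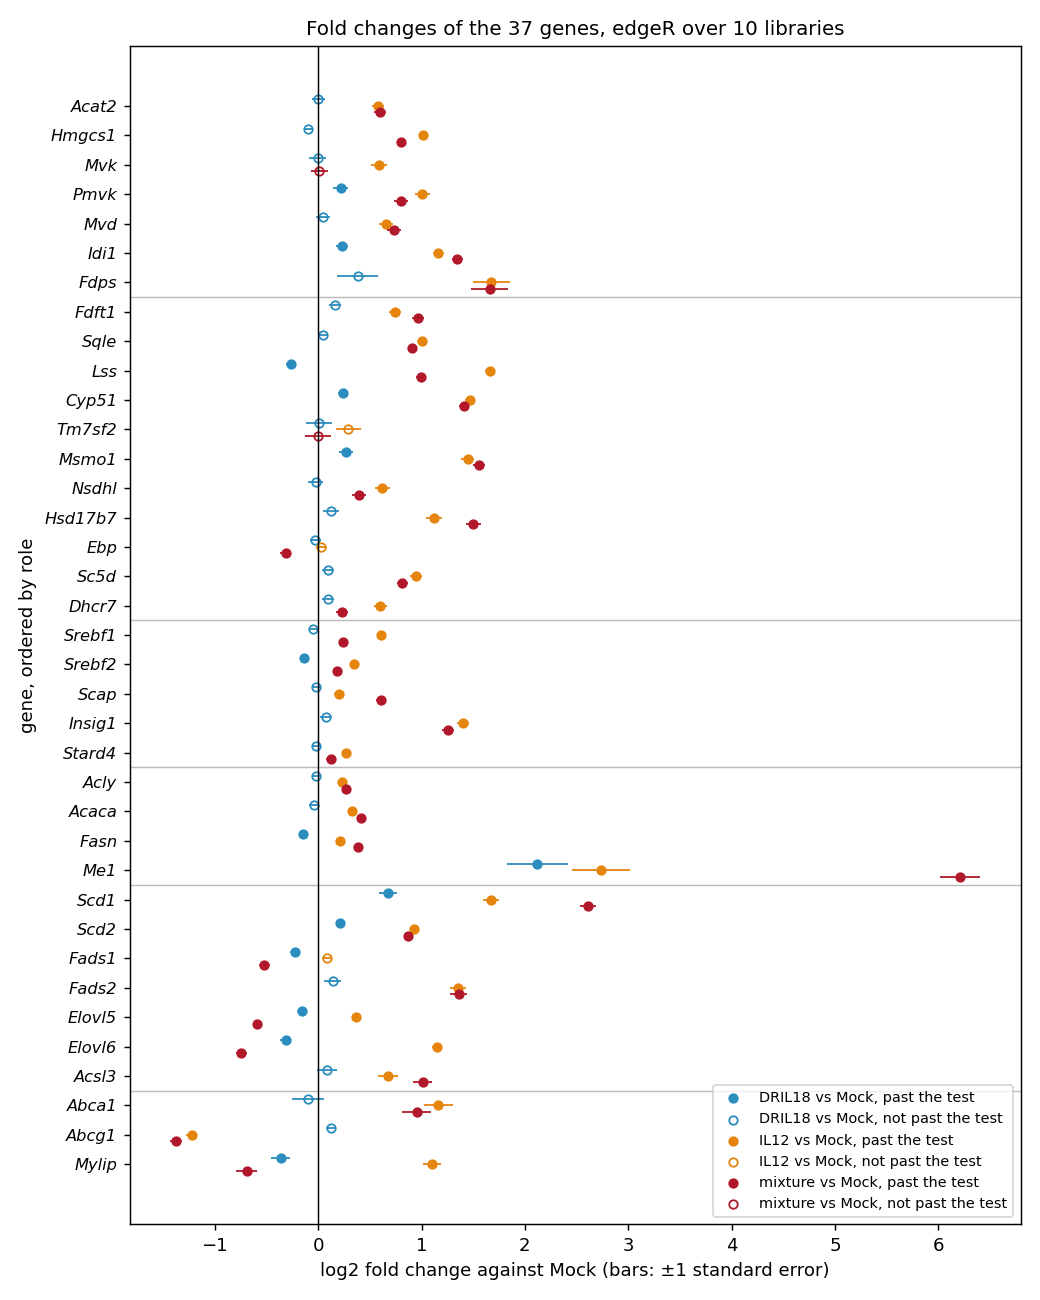
Points give the log2 fold change of each gene against Mock in DRIL18, IL12 and mixture, bars are 1 standard error either way, and filled points passed the test. IL12 points lie to the right of 0 for 36 of the 37 genes, and mixture points spread further, from -1.38 for Abcg1 to 6.21 for Me1.

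The SREBP system rose in both groups with IL-12 mRNA, 5 of 5 genes in each, with medians of 0.35 in IL12 and 0.24 in the mixture, and Insig1 moved most. Insig1, an SREBP target that holds the SCAP and SREBP complex back, read 35.3 and 40.2 CPM in Mock, 41.3 and 38.3 in DRIL18, 102 and 97.7 in IL12, 92.6 and 87.2 in mixture, and 34.4 and 33.1 in NoEp. It rose by 1.40 ± 0.058 in IL12 and 1.25 ± 0.058 in the mixture (adjusted p = 2.44e-18). Srebf1, which encodes SREBP-1, read 184 and 192 CPM in Mock, 183 and 180.4 in DRIL18, 285 and 286 in IL12, 219 and 226 in mixture, and 168 and 178 in NoEp. Its rise was 0.61 ± 0.039 in IL12 and 0.24 ± 0.039 in the mixture, and against IL12 the mixture was at -0.36 ± 0.038 (adjusted p = 1.74e-09).

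Srebf2, which encodes SREBP-2, read 391 and 409 CPM in Mock, 362 and 364 in DRIL18, 509 and 509 in IL12, 443 and 465 in mixture, and 382 and 397 in NoEp. It rose by 0.35 ± 0.037 in IL12 and 0.18 ± 0.037 in the mixture, and fell by 0.14 in DRIL18, a call lost without Mock replicate 2 (adjusted p = 0.143). Scap, the sterol-sensing escort of SREBP, read 104 and 110.0 CPM in Mock, 101 and 110.0 in DRIL18, 122 and 123 in IL12, 159 and 166 in mixture, and 103 and 99.3 in NoEp. Here the order was the other way round, with the mixture libraries highest. Its log2 fold change from Mock was 0.20 ± 0.045 in IL12 and 0.60 ± 0.045 in the mixture, and the mixture exceeded IL12 by 0.41 ± 0.044 (adjusted p = 3.31e-09). Stard4, a cytosolic sterol carrier, rose by 0.27 in IL12. Its rise of 0.12 in the mixture was lost without mixture replicate 2 (adjusted p = 0.0642) or Mock replicate 1 (adjusted p = 0.102).

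The 4 genes of fatty acid synthesis rose in both groups, with medians of 0.28 in IL12 and 0.40 in the mixture. Acly, which splits citrate into acetyl-CoA, rose by 0.23 in IL12 and 0.27 in the mixture. Acaca, which makes malonyl-CoA, rose by 0.33 and 0.42. Fasn, the fatty acid synthase, rose by 0.21 and 0.39, and fell by 0.15 in DRIL18, a call lost without Mock replicate 2 (adjusted p = 0.0953).

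Me1, the malic enzyme that supplies NADPH for lipid synthesis, stood apart from these. It read 0.340 and 0.297 CPM in Mock, 1.33 and 1.47 in DRIL18, 1.96 and 2.33 in IL12, 24.0 and 23.8 in mixture, and 0.157 and 0.223 in NoEp. Every library with a cytokine mRNA lay above Mock and NoEp, and both mixture libraries lay far above those of either mRNA alone. The log2 fold change from Mock was 2.12 ± 0.30 in DRIL18, 2.74 ± 0.28 in IL12 and 6.21 ± 0.19 in the mixture (adjusted p = 1.09e-22). In the Mock libraries these levels rest on 12 and 10 reads, so the folds against Mock are imprecise. Against IL12 the mixture was higher by 3.47 ± 0.14 (adjusted p = 2.91e-19).

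Among the desaturases and elongases the 2 groups parted. With IL12, 6 of 7 genes rose and 1 did not pass. With the mixture, 4 rose and 3 fell. Medians were 0.93 and 0.87. Scd1, a stearoyl-CoA desaturase that makes monounsaturated fatty acids, read 12.99 and 14.3 CPM in Mock, 20.9 and 22.7 in DRIL18, 42.3 and 44.6 in IL12, 81.1 and 85.4 in mixture, and 8.73 and 11.02 in NoEp. The groups did not overlap and stood in the order NoEp, Mock, DRIL18, IL12 and mixture. Its log2 fold change from Mock was 0.68 ± 0.084 in DRIL18, 1.67 ± 0.079 in IL12 and 2.61 ± 0.075 in the mixture (adjusted p = 1.34e-23). Scd2, its paralogue, rose by 0.21, 0.93 and 0.87 in the same order. Fads2, the first desaturase of polyunsaturated fatty acid synthesis, read 20.5 and 23.9 CPM in Mock, 21.9 and 27.1 in DRIL18, 59.0 and 54.5 in IL12, 57.0 and 56.9 in mixture, and 13.8 and 15.4 in NoEp. It rose by 1.35 ± 0.079 in IL12 and 1.36 ± 0.078 in the mixture.

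Elovl6, which lengthens palmitate, rose with IL-12 mRNA alone and fell with the mixture. It read 58.5 and 56.0 CPM in Mock, 47.2 and 44.98 in DRIL18, 127 and 127 in IL12, 35.005 and 33.4 in mixture, and 56.3 and 60.3 in NoEp. The IL12 libraries were highest and the mixture libraries lowest of all. The log2 fold change from Mock was 1.15 ± 0.049 in IL12 (adjusted p = 1.33e-18), -0.31 ± 0.053 in DRIL18 (adjusted p = 3.00e-05) and -0.74 ± 0.054 in the mixture (adjusted p = 2.28e-13). Against IL12 directly, the mixture was at -1.89 ± 0.052 (adjusted p = 1.16e-23).

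Elovl5, which lengthens polyunsaturated fatty acids, read 189.7 and 196 CPM in Mock, 168 and 177 in DRIL18, 252 and 246 in IL12, 126 and 131 in mixture, and 200.3 and 191 in NoEp. As for Elovl6, its IL12 libraries were highest and its mixture libraries lowest, with log2 fold changes from Mock of 0.37 ± 0.040 in IL12 and -0.59 ± 0.041 in the mixture. Against IL12, the mixture was at -0.96 ± 0.041 (adjusted p = 6.19e-19). Fads1, the other polyunsaturated desaturase, read 63.8 and 64.1 CPM in Mock, 53.3 and 56.2 in DRIL18, 68.9 and 66.8 in IL12, 44.0 and 45.1 in mixture, and 56.6 and 58.1 in NoEp. It differed from Mock by 0.085 ± 0.050 in IL12 (adjusted p = 0.168), and its log2 fold change was -0.22 ± 0.050 in DRIL18 and -0.52 ± 0.051 in the mixture (adjusted p = 1.97e-10). Acsl3, which couples fatty acids to coenzyme A, read 10.4 and 11.6 CPM in Mock, 11.9 and 11.5 in DRIL18, 17.0 and 18.1 in IL12, 22.3 and 22.03 in mixture, and 8.23 and 9.19 in NoEp. It was highest in the mixture, at 1.01 ± 0.089 above Mock, and rose by 0.68 ± 0.092 in IL12.

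The 3 LXR target genes did not move together. Abca1, which exports cholesterol to lipid-poor particles, read 4.13 and 3.72 CPM in Mock, 3.61 and 3.71 in DRIL18, 8.10 and 9.47 in IL12, 7.82 and 7.41 in mixture, and 5.49 and 6.12 in NoEp. It rose by 1.16 ± 0.14 in IL12 and 0.96 ± 0.14 in the mixture (adjusted p = 5.47e-07). Abcg1, a second cholesterol exporter, read 64.8 and 68.4 CPM in Mock, 72.4 and 72.8 in DRIL18, 28.5 and 28.6 in IL12, 25.4 and 25.9 in mixture, and 69.7 and 70.1 in NoEp. Its IL12 and mixture libraries lay far below all others, at log2 fold changes of -1.22 ± 0.055 (adjusted p = 3.66e-18) and -1.38 ± 0.055 (adjusted p = 5.57e-20). It was the gene of the 37 called lower in IL12.

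Mylip, a ubiquitin ligase that marks lipoprotein receptors for breakdown, read 16.0 and 15.5 CPM in Mock, 11.5 and 13.1 in DRIL18, 33.8 and 33.8 in IL12, 10.6 and 8.95 in mixture, and 17.1 and 19.5 in NoEp. As for Elovl6, the IL12 libraries were highest and the mixture libraries lowest. The log2 fold change from Mock was 1.10 ± 0.086 in IL12, -0.36 ± 0.094 in DRIL18 and -0.69 ± 0.098 in the mixture (adjusted p = 2.64e-07). The mixture was also lower than DRIL18, at -0.33 ± 0.10, but this call was lost without DRIL18 replicate 2 (adjusted p = 0.119) or mixture replicate 2 (adjusted p = 0.135).

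**Figure D3:**
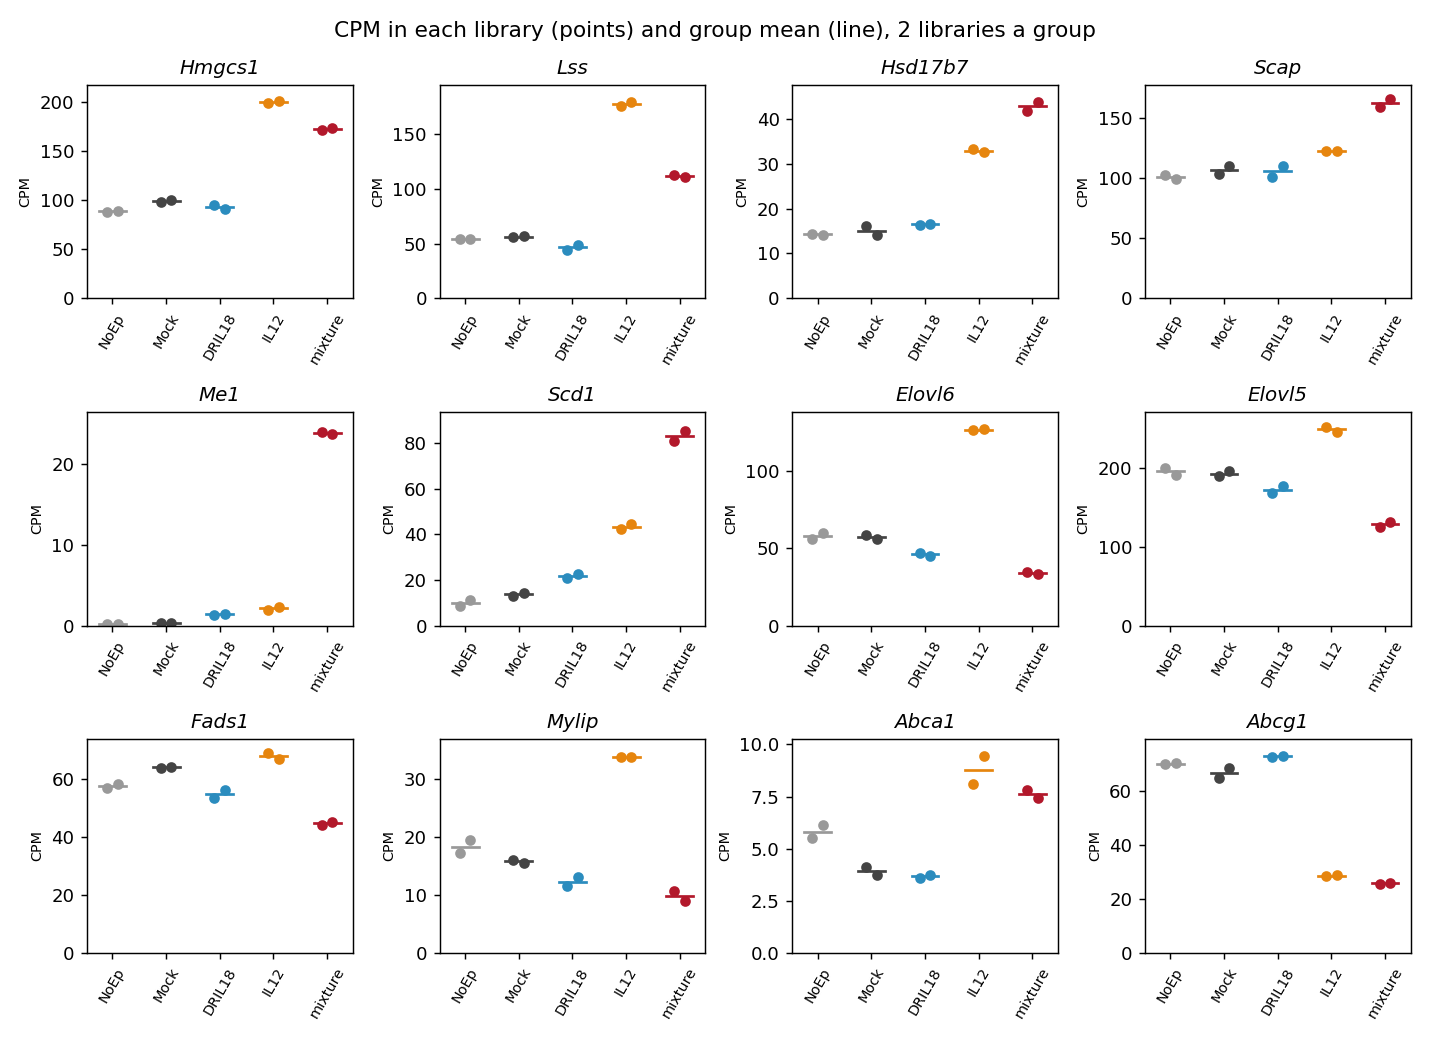
Each panel gives CPM of a gene on a linear axis from 0, with a point per library and a line at the group mean. Elovl6, Elovl5 and Mylip peak in IL12 and are lowest in the mixture, Me1 reads 24.0 and 23.8 in the mixture against at most 2.33 elsewhere, and Abcg1 is low in both groups with IL-12 mRNA.

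The groups were also compared with each other. Between mixture and IL12, 8 of the 37 genes were higher in the mixture, 18 were lower and 11 did not pass, with a median log2 difference of -0.13, where 25.8% of all genes were called higher and 26.3% lower. Between mixture and DRIL18, 28 were higher, 6 lower and 3 did not pass, with a median of 0.62, where 28.3% of all genes were called higher and 29.0% lower. Between IL12 and DRIL18, 34 were higher in IL12, 1 was lower and 2 did not pass, with a median of 0.64, where 18.9% of all genes were called higher and 20.6% lower.

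Whether one mRNA acted differently beside the other was tested by the interaction, the mixture's log2 change from Mock minus the sum of the changes with each mRNA alone. It was positive for 3 of the 37 genes, negative for 15 and not past the test for 19, with a median of -0.16, where 14.6% of all genes were called positive and 17.1% negative. The positive ones were Me1 at 1.35 ± 0.39, Scap at 0.42 ± 0.064 and Fasn at 0.32 ± 0.050. The call for Me1 was lost without Mock replicate 1, where it was 1.25 (adjusted p = 0.0881). Without IL12 replicate 2, 5 genes were positive. The most negative were Elovl6 at -1.58 ± 0.074 (adjusted p = 3.92e-17), Mylip at -1.43 ± 0.13 (adjusted p = 3.25e-10) and Elovl5 at -0.79 ± 0.057 (adjusted p = 9.31e-13). Mvk followed at -0.58 ± 0.11, Dhcr7 at -0.47 ± 0.084 and Lss at -0.40 ± 0.067.

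Between Mock and NoEp, most of the calls among these genes were unstable. Mock exceeded NoEp for 8 of 37 genes (21.6%), where 3.34% of all genes were called higher. Abca1 alone was lower (2.7%, near the 3.64% of all genes). The 8 were Hmgcs1, Sqle, Cyp51, Acaca, Scd1, Scd2, Fads2 and Acsl3, with log2 fold changes from 0.15 for Acaca to 0.61 for Fads2. Fads2 kept its call under every alternative setting run. With the word bis in the library names as a covariate, 2 of the genes were higher, and Abca1 did not pass, at -0.41 (adjusted p = 0.389). Both NoEp and both mixture libraries carry that word, and neither Mock library does. Its effect was therefore estimated within DRIL18 and IL12, the groups with 1 library of each kind. Leaving out any one of the 4 Mock and NoEp libraries brought the number higher to between 2 and 5.

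Other genes of the pathway, from lists that hold none of the 37, were counted in the same fit, against all-gene shares of 23.0% higher and 23.6% lower with IL12, and 32.0% and 31.9% with the mixture. Of 13 genes of the isoprenoid branches, 6 rose (46.2%) and 1 fell with IL12, and 9 rose (69.2%) and 2 fell with the mixture. The fall with IL12 was lost under 7 of the settings run, and 1 gene fell with the mixture without Mock replicate 2. The largest changes with the mixture were a log2 fold change of 1.06 ± 0.054 for Rabggtb, a subunit of the enzyme that prenylates Rab proteins, 0.72 ± 0.044 for Nus1, of dolichol synthesis, and 0.59 ± 0.10 for Pdss2, of ubiquinone synthesis. Of 12 genes of SREBP processing and sterol sensing, 1 fell (8.33%) and 11 did not pass with IL12, while 9 rose (75%), 1 fell and 2 did not pass with the mixture, where 32.0% of all genes were higher. With a replicate block, 2 fell with IL12, and the number also changed without Mock replicate 2. Mbtps2, a protease that releases SREBP, read 19.7 and 19.99 CPM in Mock, 19.9 and 21.2 in DRIL18, 20.2 and 22.1 in IL12, 33.9 and 34.3 in mixture, and 20.5 and 19.9 in NoEp, with an interaction of 0.64 ± 0.10 (adjusted p = 1.08e-05). Erlin1, an endoplasmic reticulum scaffold, rose with the mixture by 0.62 ± 0.077, and Paqr3, which tethers the SCAP complex at the Golgi, by 0.90 ± 0.33. Paqr3 read 1.33 and 0.625 CPM in Mock and 1.72 and 1.96 in mixture, and its call was lost without Mock replicate 2, at 0.47 (adjusted p = 0.273), without mixture replicate 2, at 0.81 (adjusted p = 0.0865), and in DESeq2 (adjusted p = 0.0684).

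For sterol transport, storage and oxysterol enzymes, 12 of 16 listed genes were tested. With IL12, 4 rose and 4 fell, 33.3% each against 23.0% and 23.6% of all genes, and 2 fell without Mock replicate 1 or in DESeq2. With the mixture, 3 rose (25%) and 6 fell (50%), against 32.0% and 31.9% of all genes. Vldlr, a lipoprotein receptor, was low, at 0.226 and 0.0595 CPM in Mock, 0.231 and 0.472 in DRIL18, 1.44 and 2.14 in IL12, 2.25 and 2.67 in mixture, and 0.283 and 0.167 in NoEp, and Sult2b1, a sterol sulfotransferase, rose by 2.06 ± 0.19 with IL12 and 1.198 ± 0.20 with the mixture. Gramd1a, which moves cholesterol from the plasma membrane inward, had a log2 fold change of -1.08 ± 0.036 with the mixture. Of 8 tested LXR and RXR receptors and further LXR targets, 2 rose (25%, near the 23.0% of all genes) and 4 fell (50%, against 23.6%) with IL12, and 1 rose (12.5%, against 32.0%) and 5 fell (62.5%, against 31.9%) with the mixture. Arl4c, an LXR target, read 277 and 280.4 CPM in Mock, 161 and 166 in DRIL18, 402 and 426 in IL12, 79.4 and 80.7 in mixture, and 314 and 313 in NoEp, with an interaction of -1.60 ± 0.055. Rxra, a partner receptor of LXR, read 12.1 and 14.2 CPM in Mock, 18.1 and 16.9 in DRIL18, 1.37 and 1.38 in IL12, 6.01 and 6.55 in mixture, and 12.5 and 12.7 in NoEp, lowest in the IL12 libraries. Rxrb, another RXR gene of the list, was more abundant, with means of 83.8 CPM in Mock, 69.3 in IL12 and 70.2 in mixture. Smpdl3a, a phosphodiesterase induced by LXR, had log2 fold changes of -1.13 ± 0.072 with IL12 and -1.504 ± 0.074 with the mixture.

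Of 21 tested genes of further fatty acid and glycerolipid synthesis, 9 rose (42.9%, against 23.0% of all genes) and 5 fell (23.8%, near the 23.6% of all genes) with IL12, and 11 rose (52.4%, against 32.0%) and 4 fell (19%, against 31.9%) with the mixture. With IL12, 3 fell without IL12 replicate 1 or either Mock library, and in DESeq2. Dgat1, which completes triglycerides, read 21.3 and 22.5 CPM in Mock, 22.6 and 23.9 in DRIL18, 113 and 121 in IL12, 124 and 118 in mixture, and 21.4 and 23.2 in NoEp, a log2 fold change from Mock of 2.42 ± 0.058 in IL12 and 2.47 ± 0.057 in the mixture. Acss2, which makes acetyl-CoA from acetate, went the other way, at -0.89 ± 0.075 and -1.84 ± 0.081. Acacb, the mitochondria-associated form of acetyl-CoA carboxylase, was at -0.99 ± 0.34 and -1.62 ± 0.36, the first lost without IL12 replicate 1, at -0.61 (adjusted p = 0.214), without Mock replicate 2, at -0.79 (adjusted p = 0.145), and in DESeq2 (adjusted p = 0.0582). Of 18 genes of fatty acid oxidation, 3 rose (16.7%, against 23.0% of all genes) and 7 fell (38.9%, against 23.6%) with IL12. In limma on the deposited log2 CPM, 5 rose with IL12. With the mixture 5 rose (27.8%) and 6 fell (33.3%), shares near the 32.0% and 31.9% of all genes. Cpt1a, which admits fatty acids to mitochondria, read 77.8 and 79.2 CPM in Mock, 63.7 and 65.7 in DRIL18, 46.2 and 44.3 in IL12, 28.5 and 29.5 in mixture, and 75.8 and 76.3 in NoEp, with log2 fold changes of -0.80 ± 0.050 and -1.44 ± 0.053. Hadh, a dehydrogenase of the cycle, was at -0.87 ± 0.059 with the mixture, and Acadl, an acyl-CoA dehydrogenase, rose by 1.42 ± 0.039 with IL12 and 0.60 ± 0.039 with the mixture.

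**Figure D4:**
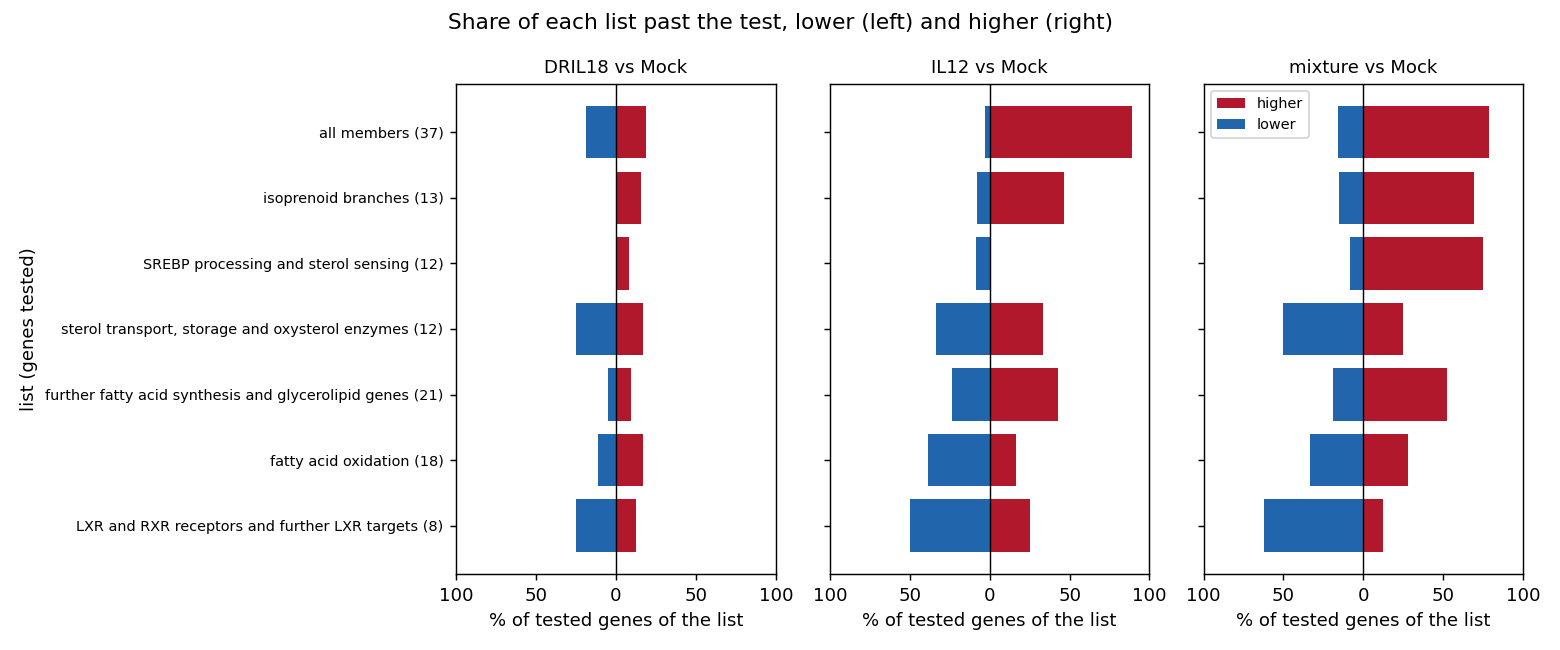
Bars give the percent of tested genes of each list that passed the test higher (right, red) or lower (left, blue) than Mock, with the number tested in brackets. The 37 genes, shown as all members, lie mostly to the right with IL12 and with the mixture, and the SREBP processing list does so with the mixture.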

How the data were processed

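Gene counts of 10 libraries were used as the authors deposited them. The submitters' processing notes name STAR 2.7.9, featureCounts, edgeR, limma and the mouse build mm39, and the kit was TruSeq Stranded mRNA, per the labels' protocols. The annotation release and strand setting were not stated. The deposited log2 CPM values, which equal limma's voom transform of the counts with TMM scaling (largest difference 4.97e-14), served in 1 alternative.

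A GENCODE M21 table gave symbols for 52083 of 55359 identifiers. In R 4.3.3, edgeR 4.0.16 fitted 5 group means to all 10 libraries by quasi-likelihood, with TMM scaling (factors 0.955 to 1.03, also used for CPM) and filterByExpr, which kept 15777 genes. Calls are at a Benjamini-Hochberg adjusted p under 0.05, and standard errors come from the F statistic. Alternatives were DESeq2 1.42.0, limma 3.58.1, other scaling, no filter, the compared groups alone, a replicate block, the word bis in library names as covariate, and each library left out. They were applied to the other pathway lists after the data were seen. The members and lists were chosen with earlier results of these data known. Values in every library are given for members changed by at least 1 (log2) past the test against Mock with a cytokine mRNA, members with an interaction past the test of at least 0.5 in size, and the SREBP, SCAP, INSIG and LXR target genes. Fads1 was added after its values were seen. Of each other list, up to 3 genes with the largest change past the test in the mixture and at least 1 CPM in the higher group are named. Rxrb was added to these after its values were seen.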

Additional observations from a re-analysis of the deposited data

Results flagged for a closer look

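The effect of one mRNA differed in the presence of the other, by the interaction term of the edgeR fit, for 18 of the 37 genes. It was positive for 3 (8.11%, against 14.6% of all genes) and negative for 15 (40.5%, against 17.1%). On the log2 scale the positive values were 1.35 for Me1, 0.42 for Scap and 0.32 for Fasn. The call for Me1 was lost without Mock replicate 1 (1.25, adjusted p = 0.0881). The negative values were -1.58 for Elovl6, -1.43 for Mylip, -0.79 for Elovl5, -0.58 for Mvk, -0.47 for Dhcr7, -0.42 for Pmvk, -0.40 for Lss, -0.38 for Fads1, -0.32 for Ebp, -0.31 for Srebf1, -0.30 for Cyp51, -0.28 for Abcg1, -0.27 for Scd2, -0.23 for Insig1 and -0.22 for Sc5d. The calls for Insig1 and Sc5d were also lost in DESeq2 and without DRIL18 replicate 1, IL12 replicate 1, mixture replicate 2 or Mock replicate 1, and that for Sc5d without mixture replicate 1.

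Apart from Rxrb, the genes named from the other pathway lists were chosen for large changes between mixture and Mock, which enter the interaction. Their count past the test is therefore not comparable with the all-gene shares of 14.6% positive and 17.1% negative. Of these genes, 13 passed the same test. They were Rxra at 1.78, Mbtps2 at 0.64, Nus1 at 0.31, Rabggtb at 0.29 and Erlin1 at 0.29, and, on the negative side, Arl4c at -1.60, Acadl at -0.87, Sult2b1 at -0.87, Gramd1a at -0.82, Acss2 at -0.79, Smpdl3a at -0.49, Cpt1a at -0.36 and Hadh at -0.27. The call for Hadh was lost without Mock replicate 1, that for Sult2b1 without Mock replicate 1 or mixture replicate 2 and in DESeq2, and that for Erlin1 under most of the settings run. With 2 libraries a group, single libraries could not be tested as outliers.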

How the results depend on the processing

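Over 18 alternative settings, 5327 gene values were recomputed, of which 5184 kept their side of the threshold, 94 fell short of it, 49 newly passed, and no called value changed sign. Of the 5184, 72 changed sign without passing in either fit, and 5112 also kept their direction. All 34 calls in IL12 against Mock held in every setting, as did 34 of 35 in mixture against Mock, 7 of 14 in DRIL18 against Mock, 1 of 9 in Mock against NoEp and 15 of 18 interactions. With bis as a covariate, 2 members were higher and 0 lower in Mock against NoEp in edgeR (Abca1 at -0.41, adjusted p = 0.389). Leaving out each library in turn gave 2 to 11 members higher and 0 to 1 lower in Mock against NoEp, 4 to 7 lower in DRIL18 against Mock (4 without Mock replicate 2) and 2 to 5 positive interactions (5 without IL12 replicate 2). An arm left with 1 library was assumed to vary like the other groups. The cause was not tested. A replicate block gave 33 members higher in IL12 and 29 in mixture against Mock, and 4 positive interactions where the fit without it gave 3. Differences between replicates 1 and 2 correlated little from group to group (r from -0.0318 to 0.0493 over 15777 genes). Counting noise also lowers r, so this cannot decide whether same-numbered libraries share an origin, which the labels do not give. Depth limits Me1, Fdps and Abca1 most, whose standard errors were the widest in the comparisons with Mock.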
